A study of Homo sapiens with 24 samples.

Results

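The genes described here encode enzymes and regulators of cholesterol and fatty acid synthesis, and a sterol carrier. They were 28 named genes, found by symbol in all 4 expression tables of the series, of 14351 symbols that all 4 tables share. Of the 28, 17 encode enzymes of the mevalonate and sterol pathway, and 7 encode enzymes that make, desaturate or elongate fatty acids or supply acetyl-CoA. The other 4 are grouped here as regulators: SREBF1, SREBF2, INSIG1 and the sterol carrier STARD4. All 28 passed the minimum mean level of 1 in every table, so no member was lost to the filter on low values.

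Cholesterol is built from acetyl-CoA through mevalonate, the isoprenoid units, squalene and lanosterol. When sterols in the endoplasmic reticulum membrane run low, the membrane-bound SREBP transcription factors, encoded by SREBF1 and SREBF2, are cleaved and move to the nucleus, where they switch on these enzymes, often together with the CCAAT-binding factor NF-Y and with SP1. INSIG1 holds the SREBPs back when sterols are plentiful and is itself an SREBP target. SREBF1 and the desaturase gene SCD also respond to the oxysterol receptors LXR, as do the cholesterol exporters ABCA1 and ABCG1 and the ubiquitin ligase MYLIP.

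The study measured poly-A RNA by stranded RNA-Seq in triple-negative breast cancer (TNBC) cell lines, to find genes that mark or maintain breast cancer stem-like cells (BCSCs) and to see what the mitotic kinesin KIF20A does in them. The 24 libraries fell into 8 groups of 3 biological replicates. In the lines Hs578T and HCC70, both of wild-type genotype, BCSCs (CD24-CD44+ and ALDH+) were sorted and compared with non-BCSCs, which lacked both marks. In MDA-MB-231 cells, a Cas9 guide RNA against KIF20A (KIF20A sg1, labelled a knockdown) was compared with a control guide (sgCtrl), and a KIF20A overexpression vector (KIF20A OE) with the empty vector (EV). Each comparison was a batch of its own by the labels, with its own table: TPM, a length-corrected share of the transcripts, for the sorted lines, normalized counts for KIF20A sg1 and sgCtrl, and CPM, a share of the library's counts, for KIF20A OE and EV. KIF20A sg1 was 1 guide in a lentivirally infected population selected with puromycin, and Hs578T and HCC70 were grown in different media, both with serum. The reads recovered per library ranged from 24983606 to 33985436 in the sorted lines, from 41424338 to 51018667 for KIF20A sg1 and sgCtrl, and from 15971297 to 22182293 for KIF20A OE and EV.

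The libraries differed in ways that bear on the results. The libraries labelled KIF20A OE held KIF20A at 1350, 269 and 896 CPM against 101, 143 and 124 CPM in EV, but markers of the MDA-MB-231 line were nearly gone from them. CD44 read 0.125, 0.316 and 1.23 CPM in them against 788, 615 and 523 CPM in EV, and all 6 mesenchymal markers checked were lower (summed 377 to 833 CPM against 5620 to 6290 CPM), while IRS4 and CDKN2A, listed at 0 in every EV library, read 1220 to 1750 CPM and 276 to 353 CPM. They are therefore called OE-labelled libraries throughout, and what the vector did cannot be told apart from whatever else set these libraries apart. In the sgCtrl group, replicate 3 decided how many genes were called (0 in all libraries, 7 higher and 137 lower without it), and member counts are given with and without it. Adipocyte markers, checked because fat cells express many of these genes, summed to at most 1.04 TPM in the sorted lines and 0.706 normalized counts with either guide. Of the 5 markers only PLIN1 was listed for the vector libraries. It read 0.193 to 1 CPM in EV and 1.39 to 2 CPM in the OE-labelled libraries, and was called higher. In bulk RNA, fewer cells of a kind and less RNA per cell cannot be told apart.

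Sites for SREBP, NF-Y and SP1 near the start of transcription are the known common feature of many of these genes, so the promoter letters are shown before the values. RefSeq promoter windows on GRCh38.p14, from 250 bases before to 50 after the start, were found for 25 of the 28 members; FDFT1, SQLE and FASN had none in the table. The NF-Y box CCAAT, searched on both strands, was in the window of 20 of 25 members (80%), while 39.7% of all 27305 genes with a window held it, and 13 members (52%) held it at least 2 times against 12.9% of all genes. The SP1 box GGGCGG was in 24 members (96%, all genes 48.3%) and the E-box CACGTG in 3 (12%, all genes 8.77%). The classical sterol regulatory element core, TCACNCCAC, was in 1 member, SREBF2 (4% of members, 1.39% of all genes). Matches of different motifs were counted separately and could share bases, the comparison with all genes was not matched for expression or base composition, and a match describes the letters only. Shown are 4 windows, written 5′ to 3′ along the gene with NF-Y boxes (CCAAT, or ATTGG on the other strand) and the sterol element in capitals. SREBF2 holds both elements, with the sterol element starting 133 bases and the NF-Y box 106 bases before the start of transcription. SCD had the largest fold change under KIF20A sg1, EBP has 3 NF-Y boxes and differed in the last comparison, and MVD, also with 3, differed between the sorted fractions of HCC70.
SREBF2, chr22:41832855-41833154, plus strand
SREBF2: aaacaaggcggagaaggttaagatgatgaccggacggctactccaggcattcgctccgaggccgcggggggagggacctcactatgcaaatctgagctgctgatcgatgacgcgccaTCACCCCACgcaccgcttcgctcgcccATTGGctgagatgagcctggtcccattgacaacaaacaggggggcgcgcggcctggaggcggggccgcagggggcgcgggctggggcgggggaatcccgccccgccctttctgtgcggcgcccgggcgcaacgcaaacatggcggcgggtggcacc
SCD, chr10:100346983-100347282, plus strand
SCD: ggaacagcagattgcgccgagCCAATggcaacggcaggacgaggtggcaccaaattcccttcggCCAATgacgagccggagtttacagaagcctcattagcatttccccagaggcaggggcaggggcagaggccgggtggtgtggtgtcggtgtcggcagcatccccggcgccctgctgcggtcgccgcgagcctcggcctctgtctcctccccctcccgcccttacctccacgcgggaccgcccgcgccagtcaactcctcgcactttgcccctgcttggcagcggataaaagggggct
EBP, chrX:48521558-48521857, plus strand
EBP: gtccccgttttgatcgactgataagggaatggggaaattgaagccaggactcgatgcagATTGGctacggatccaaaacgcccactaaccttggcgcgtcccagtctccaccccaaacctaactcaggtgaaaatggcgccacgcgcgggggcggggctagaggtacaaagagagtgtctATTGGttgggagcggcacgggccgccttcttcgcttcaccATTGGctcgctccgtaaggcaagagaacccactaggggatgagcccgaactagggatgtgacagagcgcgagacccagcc
MVD, chr16:88663042-88663341, minus strand
MVD: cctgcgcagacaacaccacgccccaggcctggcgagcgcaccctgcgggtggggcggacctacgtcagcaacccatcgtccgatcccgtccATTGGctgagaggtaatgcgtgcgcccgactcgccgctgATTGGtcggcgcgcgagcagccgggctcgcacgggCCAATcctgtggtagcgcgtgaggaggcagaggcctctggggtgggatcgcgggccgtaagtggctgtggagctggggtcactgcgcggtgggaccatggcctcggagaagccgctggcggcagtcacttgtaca

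The members ranged widely in RNA level, and many stood at different levels in the 2 sorted lines. Per length, in TPM over the 6 libraries of each line, the members' mean ranged from 5.25 TPM (TM7SF2, a sterol reductase) to 411 TPM (SCD) in Hs578T and from 3.80 TPM (ELOVL6, a fatty acid elongase) to 615 TPM (FDPS, farnesyl diphosphate synthase) in HCC70. In 17 members every HCC70 library was above every Hs578T library, in 5 every Hs578T library was above, and in 6 the lines overlapped. How many of all genes parted the lines in this way was not counted, so these counts describe the members only. The widest gap was in FADS2, the delta-6 desaturase of polyunsaturated fatty acids, at 6.79 to 9.28 TPM in Hs578T and 153 to 192 TPM in HCC70, a ratio of 22.2. TM7SF2 (ratio 8.52), ACSS2, which makes acetyl-CoA from acetate (4.58), FDPS (4.23) and SREBF2 (3.70) were also higher in HCC70.
Higher in Hs578T were ELOVL6 (24.8 to 29.4 TPM against 3.37 to 4.39 TPM), the sterol carrier STARD4 (50.9 to 57.6 TPM against 10.5 to 14.3 TPM), the delta-5 desaturase FADS1 (104 to 116 TPM against 36.3 to 38.5 TPM), squalene synthase FDFT1 (239 to 261 TPM against 85.3 to 98.5 TPM) and the entry enzyme HMGCS1 (106 to 121 TPM against 55.1 to 67.1 TPM). FADS1 and FADS2, neighbours on chromosome 11 read in opposite directions, stood in opposite order in the lines. SCD was alike at 393 to 431 TPM and 391 to 424 TPM. The tables were scaled separately and line, medium and batch coincide, so these levels are set side by side without a test.

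**Figure D1:**
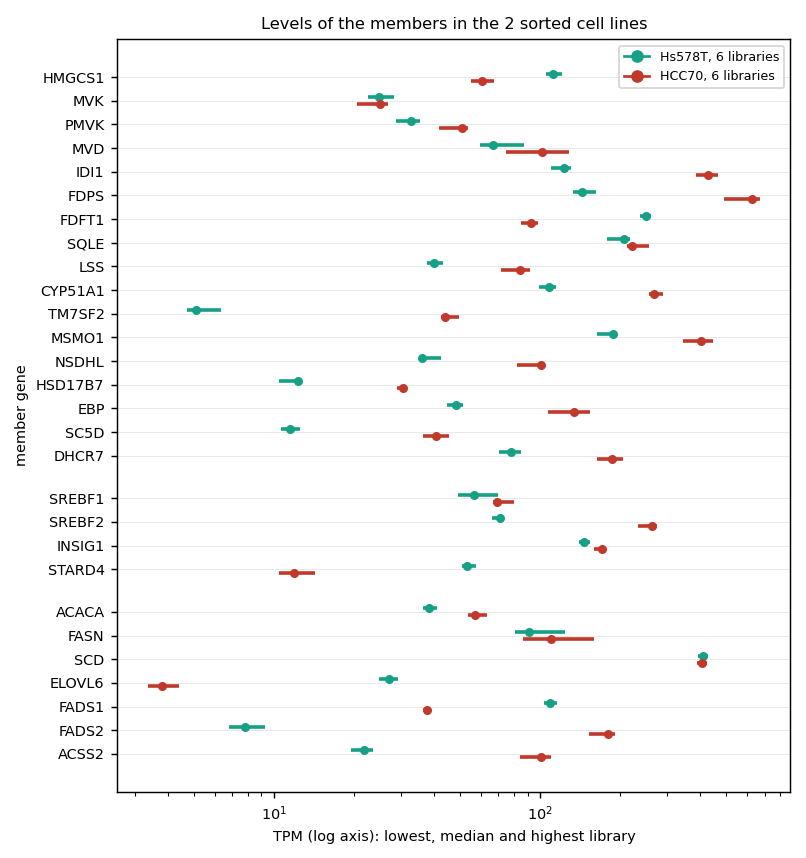
Levels of the 28 members in the sorted cell lines, on a logarithmic TPM axis. Each bar runs from the lowest to the highest of 6 libraries, BCSCs and non-BCSCs together, with the median as a point. FADS2 lies furthest apart, higher in HCC70. ELOVL6 lies furthest apart of the members higher in Hs578T, while SCD coincides.

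The first question of the design is whether BCSCs and non-BCSCs differ in these genes. In Hs578T no member passed the adjusted threshold (0 of 28, while 2.9% of all 13324 genes were called higher, 4.26% lower and 7.15% in either direction), and the differences were small. The members' median log2 fold change was 0.03 (all genes -0.01), 27 of 28 members lay within 0.25 of 0, and the 95% intervals of all 28 lay between -0.37 and 0.54. By unadjusted p in limma, 3 members were higher (8.98% of all genes) and 2 lower (13.5% of all genes), 5 in all of the 28, where 22.5% of all genes passed in either direction.
Those 5 were also the members whose fractions did not overlap (12% of all genes were higher, 17% lower and 29% either without overlap). SQLE, squalene epoxidase, read 201, 194 and 179 TPM in non-BCSCs and 217, 218 and 215 TPM in BCSCs (log2 fold change 0.18, SE 0.0516, limma adjusted p = 0.082). DHCR7, the last reductase of cholesterol synthesis, went from 70.5, 72.8 and 77.1 TPM to 78.7, 84.5 and 85 TPM (0.17, adjusted p = 0.10 in limma). SREBF1 went from 49.2, 51.4 and 56.1 TPM to 60.2, 69.7 and 57.5 TPM (0.25, limma adjusted p = 0.11).
All BCSC libraries of these 3 genes were above all non-BCSC libraries, with ratios of the means of 1.13, 1.13 and 1.2. Mevalonate kinase MVK (27.0, 25.7 and 28.3 TPM against 23.5, 24.0 and 22.7 TPM in BCSCs, log2 fold change -0.20, limma adjusted p = 0.060) and STARD4 (57.6, 55.7 and 54.7 TPM against 51.8, 51.1 and 50.9 TPM, -0.13, adjusted p = 0.12 in limma) were lower in every BCSC library. Counting models on the recovered reads placed SQLE and DHCR7 (edgeR), and SQLE, DHCR7 and SREBF1 (DESeq2), past the threshold. The smallest differences were those of PMVK (-0.00) and FDFT1 (-0.01). Among related genes outside the list, 2 fell: INSIG2, which like INSIG1 retains the SREBPs (20.7, 18.0 and 17.8 TPM against 12.7, 15.1 and 13.5 TPM, log2 fold change -0.43, limma adjusted p = 0.021), and ELOVL7 (-0.30, limma adjusted p = 0.045).

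In HCC70 the BCSCs held less of 2 members. FASN, the fatty acid synthase (chr17:82078338-82098294, minus strand, GRCh38), read 160, 130 and 120 TPM in non-BCSCs and 93.1, 101 and 86.8 TPM in BCSCs, a ratio of 0.686 (log2 fold change -0.53, SE 0.108, limma adjusted p = 0.047). MVD, which makes isopentenyl diphosphate from mevalonate diphosphate (chr16:88651935-88663161, minus strand), read 129, 116 and 109 TPM against 83.5, 94.5 and 74.8 TPM, a ratio of 0.715 (-0.48, SE 0.0953, limma adjusted p = 0.046). For both genes every BCSC library was below every non-BCSC library. These were 2 of 28 members called lower, while 0.552% of all genes were called lower and 2.83% in either direction, and no member was called higher (2.28% of all genes were).
Both calls sat at the edge of the threshold. Neither passed with no minimum level, after rescaling by the median of ratios, or with replicate number as a block in the model. Leaving out any single library ended the call of MVD, and the call of FASN held only without non-BCSC replicate 1 or replicate 3, while edgeR on the recovered reads called the same 2 genes and DESeq2 called SQLE and IDI1 as well.
Of the other 26 members, 4 more were lower in every BCSC library than in any non-BCSC library: STARD4 (-0.25), SQLE (-0.18), the isomerase IDI1 (-0.16) and lanosterol demethylase CYP51A1 (-0.13), with limma adjusted p from 0.11 to 0.18. ACSS2 (84.7, 96.9 and 95.3 TPM against 105, 109 and 110 TPM, log2 fold change 0.23, limma adjusted p = 0.089), the sterol dehydrogenase NSDHL (0.18) and SREBF2 (0.13) were higher in every BCSC library. That made 6 members lower and 3 higher without overlap, while 10.1% and 20.9% of all genes did so (30.9% in either direction). By unadjusted p in limma 6 members were lower (7.74% of all genes) and 2 higher (16% of all genes). The members' median was -0.04 (all genes 0.02), 18 of 28 were below 0, and the members' 95% intervals lay between -0.78 and 0.44. INSIG1 stood at 162 to 173 TPM in non-BCSCs and 160 to 173 TPM in BCSCs (-0.01). Of the related genes outside the list, 1 rose, FAXDC2 (0.34, limma adjusted p = 0.046).
In both lines the 8 markers of the G2 and M phases were all higher in BCSCs, 7 of 8 past the threshold, with sums of 1140 to 1230 TPM in non-BCSCs and 1490 to 1570 TPM in BCSCs of Hs578T, and of 746 to 793 TPM and 1140 to 1230 TPM in HCC70. Whether cell cycle phase had a part in the members' differences was not tested.

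The difference between BCSCs and non-BCSCs was then compared between the lines in a model with an interaction of line and fraction. For 3 of 28 members the effect differed, where 7.11% of the 11668 genes tested did, and by unadjusted p for 6 (26.8% of all genes). SQLE was higher in BCSCs of Hs578T (0.18) and lower in those of HCC70 (-0.18), a difference of -0.36 (SE 0.0818, limma adjusted p = 0.025). FASN had 0.25 in Hs578T, from 80.6, 84.1 and 95.4 TPM to 99.7, 125 and 87.3 TPM, against -0.53 in HCC70, a difference of -0.78 (SE 0.183, limma adjusted p = 0.029). MVD had 0.15, from 59.7, 63.5 and 69.5 TPM to 69.7, 87.2 and 59.8 TPM, against -0.48, a difference of -0.64 (SE 0.174, limma adjusted p = 0.049).
SREBF1 followed the same pattern, with 0.25 against -0.11, but missed the threshold (difference -0.37, limma adjusted p = 0.069). Of the 28 members, 12 had the same sign in both lines. In Hs578T the highest FASN and MVD values, 125 and 87.2 TPM, came from the same library, BCSC replicate 2, and without that library no member's interaction passed. The count was also 0 with replicate number as a block in the model, and without Hs578T non-BCSC replicate 2, Hs578T BCSC replicate 1 or HCC70 BCSC replicate 1. It was 1 without Hs578T non-BCSC replicate 1, HCC70 non-BCSC replicate 1 or HCC70 BCSC replicate 3, and 5 without Hs578T BCSC replicate 3.

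**Figure D2:**
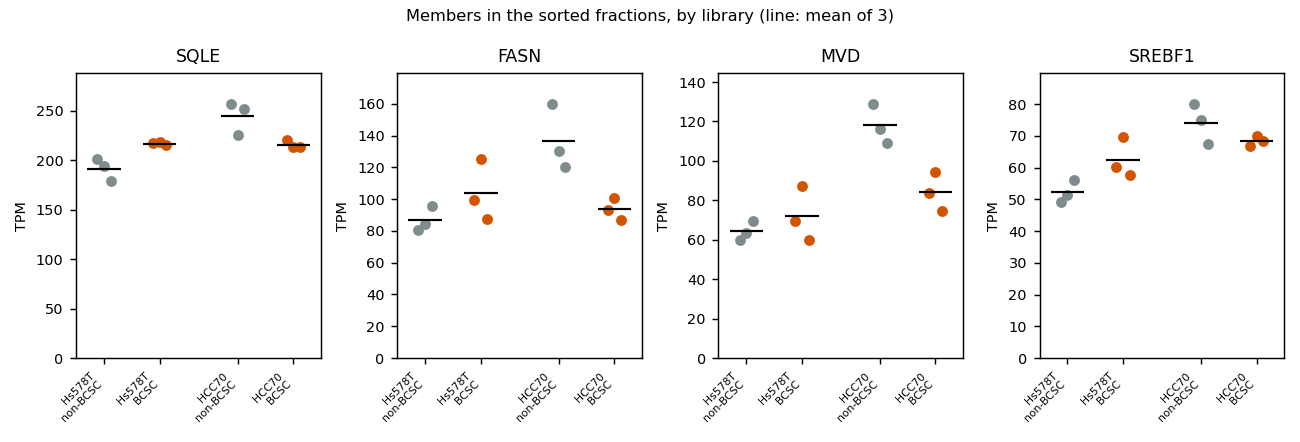
SQLE, FASN, MVD and SREBF1 in TPM in each library of the sorted fractions, with the mean of 3 libraries as a line. In HCC70 the BCSC libraries of SQLE, FASN and MVD lie below all non-BCSC libraries; in Hs578T those of SQLE and SREBF1 lie above.

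The next comparison asks what the KIF20A guide did to these genes in MDA-MB-231. KIF20A itself read 153, 173 and 156 normalized counts with sgCtrl and 122, 145 and 91.1 with KIF20A sg1 (log2 fold change -0.45, limma adjusted p = 0.69), lower in 3 of 3 libraries. These values are RNA, while the study examined depletion by its guides as KIF20A protein, by immunoblot. No member passed the adjusted threshold in either direction, as no gene of 12852 did in limma (0%). DESeq2 called 3 genes higher and 13 lower and edgeR 0, with 0 members in each. At an unadjusted p under 0.05 limma had 899 genes (7%). By that p 10 members were lower and 0 higher (edgeR 7 lower, DESeq2 9), while 4.72% of all genes were lower and 2.28% higher.
Most members lay on the same side: 26 of 28 members were below 0, where 49.6% of all genes were, and the members' median was -0.25 (all genes 0.00). Among the sterol enzymes 16 of 17 were below 0, among the regulators 4 of 4, and among the fatty acid enzymes 6 of 7. The exceptions were SC5D (0.09), a sterol desaturase, and ELOVL6 (0.18). Members of a pathway share regulation and the same 6 libraries, so these 28 directions are not 28 independent observations.
In 10 members every KIF20A sg1 library was below every sgCtrl library (7.3% of all genes), and in 0 members above (5.73% of all genes, 13% in either direction). These were CYP51A1, INSIG1, PMVK, FADS2, EBP, DHCR7, FADS1, SREBF2, MVK and FDPS. INSIG1 read 34.1, 29.8 and 64.3 normalized counts with sgCtrl and 29.7, 27.7 and 20.8 with KIF20A sg1 (-0.63, SE 0.251). Phosphomevalonate kinase PMVK read 21.0, 20.5 and 13.7 against 13.6, 11.9 and 10.1 (-0.58, SE 0.192). For both genes the nearest libraries of the groups almost met, at 29.8 and 29.7 for INSIG1 and at 13.7 and 13.6 for PMVK. Without sgCtrl replicate 3, the highest for INSIG1, its log2 fold change was -0.30.
SREBF2, with 102, 106 and 108 normalized counts against 91.4, 92.4 and 81.2 (-0.25, SE 0.114), and FADS1, with 147, 127 and 137 against 121, 117 and 97.5 (-0.29, SE 0.126), were more even within each group. FADS2 read 111, 93.9 and 116 against 89.4, 87.1 and 65.2 (-0.41, SE 0.148), and the sterol isomerase EBP 27.3, 27.1 and 25.5 against 23.8, 21.9 and 16.5 (-0.36, SE 0.159). For these 4 genes no library crossed between the groups. Without KIF20A sg1 replicate 3, the lowest library for all 4, the log2 fold change was -0.27 for FADS2, -0.21 for EBP, -0.20 for FADS1 and -0.20 for SREBF2.
The largest fold changes after SCD were those of CYP51A1 and INSIG1; CYP51A1 rested on few reads, down to 71 in a library, and 68.2% of its exon bases on GRCh38 (GENCODE 44) are shared with other genes annotated on the same strand. The same holds for 36.4% of the exon bases of EBP.

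SCD and SREBF1, 2 members with large fold changes that did overlap, were uneven within the KIF20A sg1 group. SCD, the stearoyl-CoA desaturase, read 175, 129 and 262 normalized counts with sgCtrl and 65.5, 130 and 61.0 with KIF20A sg1 (log2 fold change -1.16, SE 0.291, limma adjusted p = 0.69). SREBF1 read 201, 156 and 156 against 103, 160 and 87.7 (-0.58, SE 0.201, limma adjusted p = 0.69). In both genes replicates 1 and 3 of KIF20A sg1 were below all sgCtrl libraries, while replicate 2 lay within the sgCtrl range. The same order held for 3 more members, FASN, ACACA and NSDHL, 5 of 28 in all, while in 10 members all 3 replicates were below. For NSDHL replicate 2 (24.8) lay just above the lowest sgCtrl library (24.4). How many of all genes showed the order of SCD and SREBF1 was not counted. With any single library left out, the log2 fold change ranged from -1.50 to -0.90 for SCD and from -0.83 to -0.40 for SREBF1. The strongest values were those without KIF20A sg1 replicate 2 (limma adjusted p = 0.072 for SCD and 0.21 for SREBF1), and the weakest were those without sgCtrl replicate 3 for SCD and without KIF20A sg1 replicate 3 for SREBF1.
The 7 oxysterol response genes outside the list were set beside these, and those given with their values were chosen after the values were seen. ABCG1 read 3.69, 3.95 and 5.07 normalized counts with sgCtrl and 0.334, 3.35 and 0.477 with KIF20A sg1. ABCA1 read 101, 75.2 and 82.1 against 35.5, 142 and 37.7, and MYLIP 20.6, 21.5 and 22.3 against 13.7, 20.3 and 12.9. In all 3 genes replicates 1 and 3 were below the sgCtrl range, while replicate 2 was above it for ABCA1 and below every sgCtrl library for ABCG1 and MYLIP. With replicates 1 and 3 below every sgCtrl library, replicate 2 was at or above the lowest of them in 2 of the 7 genes, ABCA1 and RXRA, and in 2, ABCG1 and MYLIP, all 3 replicates were below. For CH25H and NR1H3 replicate 2 was the lowest of the KIF20A sg1 libraries, at 0.766 and 8.85 normalized counts. Of the 7 oxysterol response genes, which include the receptors NR1H2 and NR1H3, 0 passed the adjusted threshold, 2 were lower by unadjusted p and 7 were below 0 (median -0.44).
Over all members replicate 2 did not stand apart from replicate 1: the median member deviated from the sgCtrl mean by -0.18, -0.19 and -0.33 in KIF20A sg1 replicates 1, 2 and 3, and 16, 13 and 20 of the 28 members were below every sgCtrl library. The share of all genes below every sgCtrl library was not counted for single libraries, so these counts describe the members only. KIF20A sg1 replicate 2 also had the most KIF20A RNA of its group, 145 normalized counts. Whether the KIF20A level of a library had a part in these values was not tested.
Apart from the oxysterol response genes (median -0.44), the related lists had medians nearer 0 than the members' -0.25. Of 12 further genes of sterol synthesis and SREBP processing, 5 were below 0 (median 0.03), of 10 sterol transport and storage genes 6 (-0.08), of 18 further fatty acid synthesis and activation genes 9 (-0.01), and of 8 fatty acid uptake and oxidation genes 4 (0.04).
Without sgCtrl replicate 3 the unadjusted count became 12 lower and 2 higher, the share of all genes rising with it to 12.9% and 11.3%, and 22 of 28 members were below 0. Without KIF20A sg1 replicate 3 it was 3 lower (2.92% of all genes) and without sgCtrl replicate 1 it was 4 (2.81% of all genes), with 25 of 28 below 0 in each. It was 6 without sgCtrl replicate 2 (1.43% of all genes). The G2 and M markers summed to 2780 to 3130 normalized counts with sgCtrl and 3150 to 3990 with KIF20A sg1, and the epithelial markers to 1300 to 1580 and 952 to 1310. Their part in the members' shift was not tested.

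**Figure D3:**
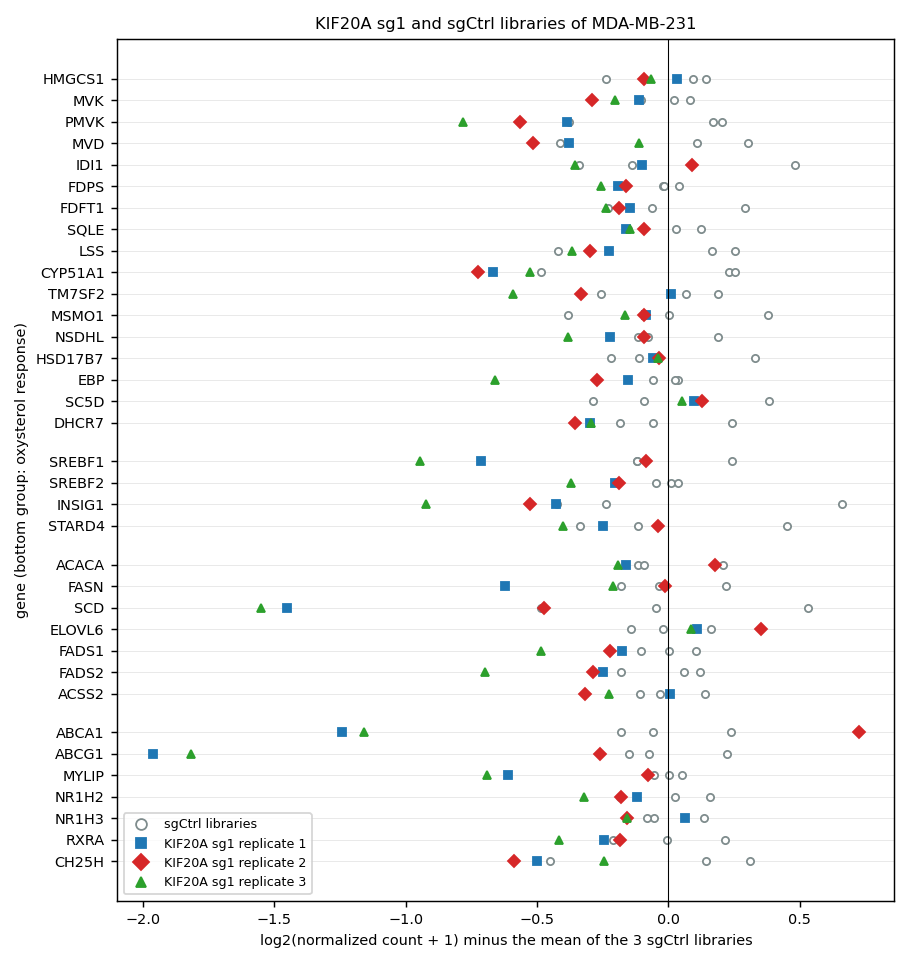
Each member, and below them 7 oxysterol response genes, in the sgCtrl and KIF20A sg1 libraries as log2(normalized count + 1) minus the mean of the 3 sgCtrl libraries. Most KIF20A sg1 points lie left of 0; SCD, SREBF1, ABCA1, ABCG1 and MYLIP have replicates 1 and 3 far to the left of replicate 2, which lies above the sgCtrl points for ABCA1 and left of them for ABCG1 and MYLIP.

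The last comparison sets the OE-labelled libraries against EV. Most genes differed there, with 46.2% of 15265 genes called higher and 23.4% lower (69.7% in all), and the members are read against that. Of 28 members 5 were called higher and 11 lower, and the members' median was -0.21 where that of all genes was 0.37. When the libraries were rescaled by the median of ratios, which brings the median gene to 0.04, 3 members were higher and 15 lower with a median of -0.55, and the calls over all genes changed from 7055 higher and 3579 lower to 5218 and 4968. SQLE, EBP and FASN were higher under both scalings, and the 11 members called lower remained lower; PMVK and SCD were not past the threshold after rescaling. Without overlap of the groups 4 members were higher (48.9% of all genes) and 10 lower (25.2% of all genes, 74.1% in either direction).
SQLE read 27.4, 45.6 and 49.6 CPM in EV and 106, 165 and 163 CPM in the OE-labelled libraries, a ratio of 3.54 (log2 fold change 1.81, SE 0.256, limma adjusted p = 0.00033). EBP went from 12.7, 14.2 and 12.2 CPM to 27.8, 32.6 and 40.2 CPM (1.29, limma adjusted p = 0.00028). FASN went from 340, 452 and 407 CPM to 739, 1050 and 996 CPM (1.21, limma adjusted p = 0.00031).
None of these 3 genes overlapped between the groups. SCD read 552, 893 and 648 CPM against 887, 1050 and 1220 CPM (0.61, adjusted p = 0.023 in limma) with EV replicate 2 above the lowest of the labelled libraries, and PMVK read 27.8, 22.0 and 25.5 CPM against 36.9, 30.4 and 38.1 CPM (0.47, limma adjusted p = 0.027).
Among the 11 lower members, FADS2 had the largest change. It read 182, 308 and 259 CPM in EV and 38.6, 34.0 and 42.6 CPM in the OE-labelled libraries, a ratio of 0.154 (-2.64, SE 0.196, limma adjusted p = 8.3e-06). Its neighbour FADS1 read 233, 372 and 288 CPM against 191, 118 and 156 CPM (-0.94, limma adjusted p = 0.0048). Both desaturases were lower without overlap.
Of the 4 regulators, 4 were below 0 under every scaling and 3 were called as deposited. SREBF1 read 134, 108 and 137 CPM against 49.3, 30.7 and 28.8 CPM (-1.80, SE 0.211, limma adjusted p = 0.00011). STARD4 read 51.6, 83.3 and 106 CPM against 31.6, 30.1 and 35.8 CPM (-1.22, limma adjusted p = 0.0022). INSIG1 read 111, 116 and 151 CPM against 65.1, 92.6 and 69.0 CPM (-0.73, limma adjusted p = 0.0057).
SREBF2 differed little as deposited, at 231 to 291 CPM against 222 to 270 CPM (-0.14, adjusted p = 0.37 in limma), and was called lower after rescaling. Of the enzymes, MVK read 44.3, 46.5 and 48.4 CPM against 18.3, 22.8 and 22.3 CPM (-1.10, limma adjusted p = 0.00019). The sterol methyl oxidase MSMO1 read 90.8, 120 and 127 CPM against 40.2, 60.7 and 64.1 CPM (-1.03, limma adjusted p = 0.0022). Lanosterol synthase LSS read 117, 133 and 175 CPM against 81.5, 66.8 and 71.8 CPM (-0.92, limma adjusted p = 0.0012).
No library of these 3 enzymes crossed between the groups. ACSS2 read 41.7, 70.9 and 42.3 CPM against 27.0, 25.7 and 29.5 CPM (-0.85, limma adjusted p = 0.0074), and IDI1 79.4, 125 and 131 CPM against 69.0, 74.6 and 75.6 CPM (-0.57, adjusted p = 0.026 in limma). HMGCS1, the synthase that feeds the mevalonate pathway, read 104, 177 and 205 CPM against 79.8, 113 and 93.8 CPM (-0.71, limma adjusted p = 0.032) and was the only one of the 11 whose groups overlapped.
The remaining 12 members did not pass: FDPS, FDFT1, MVD, CYP51A1, TM7SF2, NSDHL, HSD17B7, SC5D, DHCR7, SREBF2, ACACA and ELOVL6, with log2 fold changes from -0.44 (ELOVL6) to 0.45 (NSDHL). Of these, FDPS, FDFT1, MVD and DHCR7 were above 0 as deposited and below 0 after rescaling. EV replicate 1 was the lowest EV library for many members, with 25 of 28 below the EV mean (median deviation -0.31), and without it 4 members were called higher and 12 lower. Without replicate 3 of the labelled libraries 3 were called higher and 9 lower. The calls with the smallest fold changes rested on single libraries. SCD was not called without EV replicate 1 or 3 or labelled replicate 2 or 3, and PMVK not without EV replicate 2 or labelled replicate 1 or 3. HMGCS1 was not called without EV replicate 2 or 3 or labelled replicate 1 or 3, and IDI1 not without EV replicate 2 or 3 or any labelled replicate.
Of the 5 related lists, 4 had calls in both directions on the values as deposited, and the oxysterol response genes had 0 higher and 2 lower of 5 tested (median -0.61). Of 18 further fatty acid synthesis and activation genes 8 were called higher and 7 lower, of 12 further sterol synthesis and SREBP processing genes 4 and 3, of 10 sterol transport and storage genes 3 and 3, and of 8 fatty acid uptake and oxidation genes 2 and 2. The largest rises were in the sterol transporter GRAMD1B (0.0483 to 0.941 CPM in EV, 19.9 to 21.6 CPM in the OE-labelled libraries, log2 fold change 4.01), the elongase ELOVL7 (3.28) and the malic enzyme ME1 (2.04). The largest falls were in the fatty acid transporter SLC27A1 (66.8 to 107 CPM against 8.51 to 12.8 CPM, -2.90), the phosphatidate phosphatase LPIN1 (-2.40) and the lysosomal cholesterol exporter NPC1 (171 to 187 CPM against 42.8 to 52.9 CPM, -1.88).

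**Figure D4:**
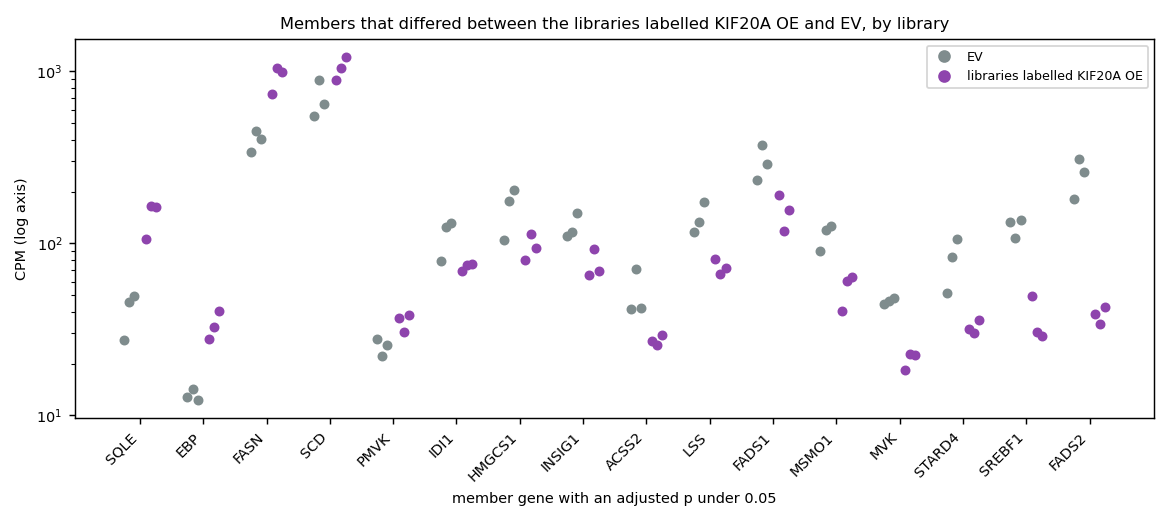
CPM on a logarithmic axis of the 16 members called between the OE-labelled libraries and EV, ordered by fold change, with 3 libraries a group as points. From SQLE to PMVK on the left the labelled libraries are higher on average, with overlap in SCD; FADS2 on the right is lowest in ratio, at 34.0 to 42.6 CPM against 182 to 308 CPM.

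Set side by side, the comparisons gave the members different behaviour. HMGCS1, MVK, LSS, CYP51A1, INSIG1 and STARD4, 6 of 28, were below 0 in all 4 comparisons, and 0 of 28 were above 0 in all 4. Some of these values lay within 1 SE of 0, as for INSIG1 (-0.01, SE 0.0554) and LSS (-0.02, SE 0.0957) in HCC70. How many of all genes kept 1 sign in all 4 comparisons was not counted, so these counts describe the members only. FASN was the only member called in 2 comparisons, lower in BCSCs of HCC70 and higher in the OE-labelled libraries. For SREBF1 the log2 fold changes were 0.25 in Hs578T, -0.11 in HCC70, -0.58 under KIF20A sg1 and -1.80 in the OE-labelled libraries. FDPS, IDI1, HSD17B7, CYP51A1 and SCD have pseudogenes named after them in GENCODE 44, up to 8 for FDPS, so reads may have been divided among copies.

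**Figure D5:**
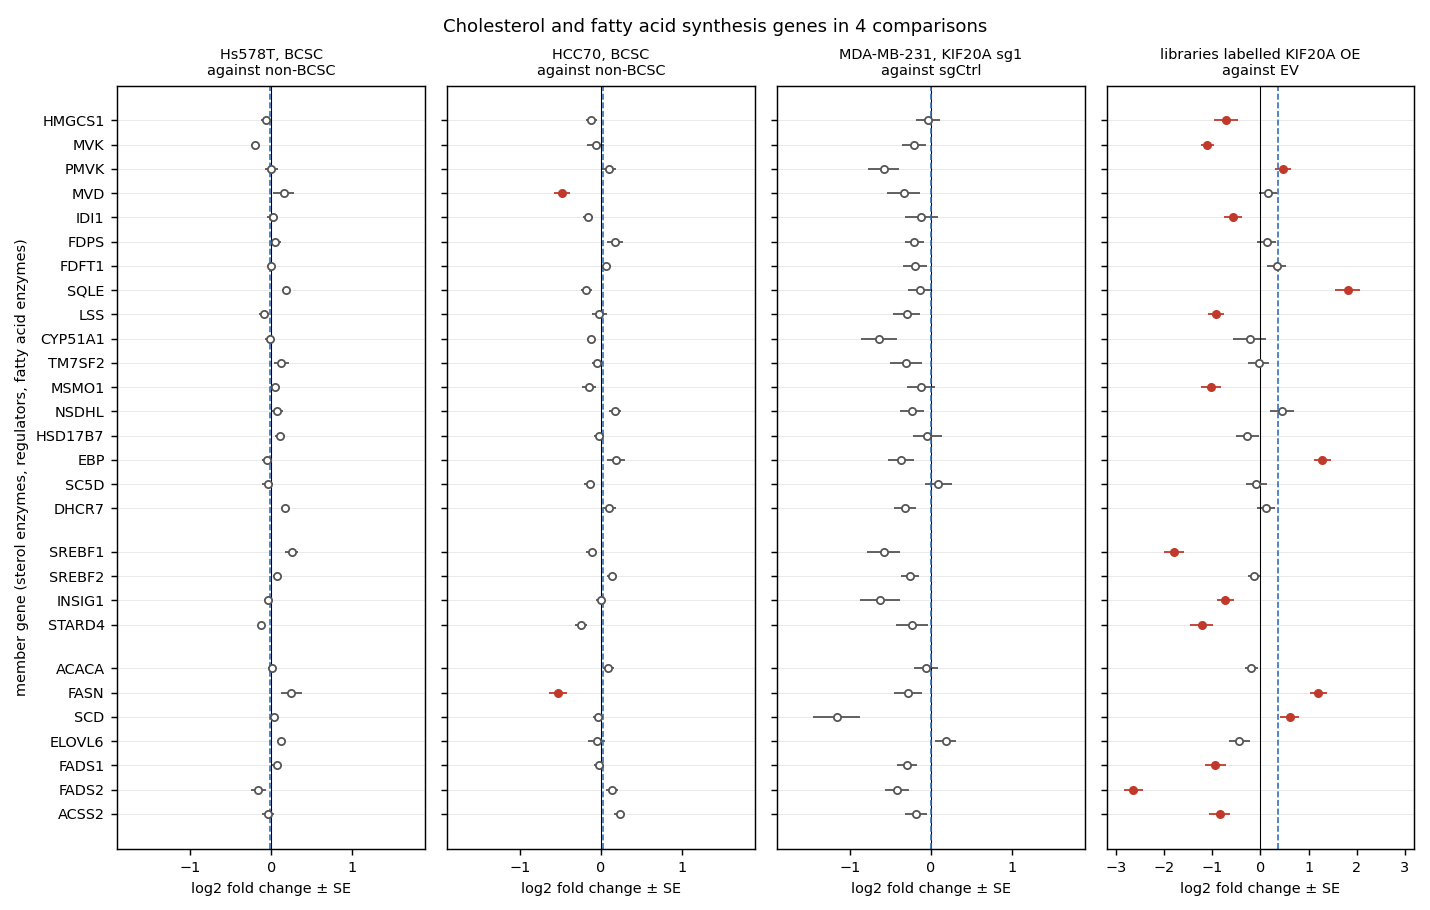
Log2 fold change (point) and standard error (bar) of every member in the 4 comparisons, in the order sterol enzymes, regulators, fatty acid enzymes. Filled red points passed an adjusted p of 0.05 (0, 2, 0 and 16 members), the dashed line is the median of all genes, and the last panel has a wider axis.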

How the data were processed

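RNA was poly-A selected and sequenced as stranded libraries. HISAT2 2.0.5 and featureCounts 1.5.0-p3 and the build GRCh38 are named in the submitters' processing notes, and the annotation is not given in the sources used here. The authors deposited TPM for Hs578T and HCC70, CPM for KIF20A OE and EV, and, for KIF20A sg1 and sgCtrl, a signal of counts divided by size factors, called normalized count here. Values above 0 were whole reads within 0.01 in 100% of the cells of these last 2 tables, and reads were recovered for all 19283 and 18248 rows of the TPM tables, so that count models could be run as alternatives. For 342 and 393 of them, whose reads shared a common divisor, that divisor was taken from the other TPM table. Older symbols were updated with RefSeq synonyms, and 0 columns of samples were left unused.

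Each comparison was fitted alone with limma 3.58.1 (trend) on log2(value + 1) for genes with a mean of at least 1, two-sided, with Benjamini-Hochberg adjustment over all genes tested at 0.05. Fold changes are on this log2(value + 1) scale, which understates those of low genes. Intervals are 95% intervals of the fit. With 3 against 3 libraries an exact permutation test of a single gene cannot go below p = 0.1, so none was used. The fit was tested on simulated counts with known changes. Their spread between libraries was a fixed small value, not estimated from these data, so the simulation is no measure of power here. Alternatives were a pseudocount of 0.1, no minimum and a minimum of 10, the median of ratios, DESeq2 1.42.0 and edgeR 4.0.16 fitted to those recovered reads, a replicate block, and leaving out each library. The labels do not say how replicate cultures were kept apart, so p-values measure the spread between these libraries. Levels were compared between genes in TPM only.

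The members and the gene lists were chosen with earlier results of these data known. All members are named, those with an adjusted p under 0.05 with a value in every library, and of other lists at most 3 rises and 3 falls past the threshold. Promoter windows came from RefSeq and places from GENCODE 44, both on GRCh38.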

Additional observations from a re-analysis of the deposited data

Results flagged for a closer look

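For 3 of 28 members the difference between BCSCs and non-BCSCs was called different in the 2 sorted lines, by the test of the interaction in limma. That test called 7.11% of all 11668 genes tested. By unadjusted p it had 6 members, where 26.8% of all genes passed. The member count was 0 to 5 with a library left out and 0 with replicate number as a block in the model. The effect in HCC70 minus that in Hs578T was -0.7799 on the log2 scale for FASN, -0.6354 for MVD and -0.3623 for SQLE, with adjusted p of 0.029, 0.049 and 0.025. SQLE was higher in 3 of 3 BCSC libraries of Hs578T than in any non-BCSC library and lower in 3 of 3 of HCC70, while the Hs578T fractions overlapped for FASN and MVD. Line, medium and batch coincide here and cannot be told apart.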

How the results depend on the processing

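In Hs578T, 1 member was called higher after rescaling by the median of ratios, 2 with edgeR and 3 with DESeq2, against 0, where 620, 810 and 737 of all 13324 genes were called higher, and the members' median was 0.053 after rescaling and -0.003 to 0.042 with a library left out. In HCC70, 0 members were called lower with no minimum, 0 after rescaling, 0 with the replicate block and 4 with DESeq2 (541 of all 13218 genes lower), against 2, and 0 to 1 with a library left out. Under KIF20A sg1, 3 to 12 members were lower by unadjusted p with a library left out (counts chosen after seeing the data), 22 to 26 were below 0, and the median was -0.29 to -0.185. For the OE-labelled libraries, 3 members were called higher after rescaling, 3 with edgeR and 3 with DESeq2, with medians of -0.547, -0.598 and -0.597, and 3 to 5 with a library left out. Under rescaling, edgeR and DESeq2, 15 members each were called lower. Of all 15265 genes, 5218, 5099 and 5230 were called higher there and 4968, 4832 and 4955 lower, with medians of 0.038, 0.055 and 0.055. Without a call, 4 members turned from above to below 0 under rescaling, edgeR and DESeq2: DHCR7 to -0.245, -0.228 and -0.227, FDFT1 to -0.031, -0.032 and -0.031, FDPS to -0.232, -0.245 and -0.243, and MVD to -0.198, -0.197 and -0.196. With a library left out, DHCR7 ranged from -0.042 to 0.274, FDPS from -0.094 to 0.269, MVD from -0.008 to 0.246, SC5D from -0.222 to 0.188 and TM7SF2 from -0.213 to 0.192. The interaction was called for 0 members with the replicate block and 0 to 5 with a library left out, against 3. The labels do not say whether equal replicate numbers mark a shared culture or sort, and the main fits used no pairing. Same-number correlations lay between -0.161 and 0.185 and passed 0.1 in 1 pair only, in HCC70. With 3 libraries a group, correlations of this size cannot exclude pairing. For KIF20A OE and EV, 6 of 6 libraries correlated best with their own number (0.014 to 0.058), a hint from the data only. The replicate block left the 5 higher and 11 lower calls there and the 0 calls in Hs578T and under KIF20A sg1. The causes of these shifts were not tested. The lowest value of a member rested on 65 reads. What limited the calls was not tested, and a member that misses the threshold is not shown to be unchanged.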
